A study of Mus musculus with 13 samples.

Results

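Hindbrain and spinal cord progenitors were taken from 10x single-cell RNA-seq libraries of mouse embryos as the barcodes that carried Sox2 and Hox transcripts and lacked the marks of forebrain, epithelium, tailbud and neurons. A barcode with at least 2000 UMIs (unique molecular identifiers, which count captured mRNA molecules) and 500 genes was kept as a member when it had at least 1 Sox2 UMI, no Otx2 UMI, at most 2 Epcam UMIs, no T UMI, at most 3 UMIs over Elavl3 and Stmn2 together, and at least 3 UMIs summed over the 39 protein-coding Hox genes. The members were thus chosen by their own measured values, so their levels of Sox2, Otx2, Epcam, T, Elavl3, Stmn2 and the coding Hox genes are descriptions and carry no test. There were 6213 members among 34605 embryo barcodes at these floors, and 76191 barcodes passed the floors in all 10 matrices analysed. The E8.5 library held 839 members of 5657 barcodes (14.8%, exact 95% interval 13.9 to 15.8). E10.5 replicate 1 held 2790 of 14667 (19.0%, 18.4 to 19.7) and E10.5 replicate 2 held 2584 of 14281 (18.1%, 17.5 to 18.7). In the heart matrices from E12.5 to P3 the rule found no barcode except 1 in each of the 2 E16.5 matrices.

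All 3 embryo libraries came from wild-type C57Bl/6J mice with no treatment. They were 1 library at E8.5 (labelled replicate 2, while replicate 1 was not analysed here) and 2 at E10.5, and values given in threes follow the order E8.5, E10.5 replicate 1, E10.5 replicate 2. The labels do not say how many embryos went into a library or whether the E10.5 libraries came from separate embryos. They do say that heads and limbs were removed before digestion, yet 474, 1167 and 1199 barcodes met the same rule with an Otx2 UMI in place of the Hox and Otx2 conditions, and these carried forebrain genes. Members had a median of 27654, 16243 and 16695 UMIs, and the E10.5 libraries shared 263 barcode sequences, 13 of them members in both.

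The neural tube is the epithelium that forms the brain and spinal cord, and its dividing progenitors carry SoxB factors such as Sox2 and effectors of Notch signalling such as Hes5. Position along the head-to-tail axis is recorded by Hox genes, which lie in 4 clusters and are switched on in the order of their place in the cluster, so that low-numbered paralog groups reach into the hindbrain and high-numbered groups stay in the trunk. Otx2 marks forebrain and midbrain instead. Across the other axis, BMP and Wnt signals from the roof plate and Sonic hedgehog from the floor plate divide progenitors into dorsal domains with Pax3, intermediate domains with Dbx genes and ventral domains with Nkx6-1 and Olig2.

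The label was checked against Pax6 and Hes5, its markers outside the rule. Pax6, a factor of neural progenitors, had a UMI in 73.7%, 55.0% and 57.4% of members. Among erythroid barcodes (over 10% globin UMIs), in which the gene should be absent, the shares were 3.85%, 4.68% and 3.65%. Hes5 was detected in 68.9%, 62.7% and 64.4% of members and in 5.13%, 11.5% and 13.7% of erythroid barcodes. The fourth marker of the label, Hoxa2, marks hindbrain from its second segment backwards. It is a rule gene and checks nothing, and it was detected in 64.1%, 57.1% and 60.3% of members. The erythroid barcodes had more UMIs, with a median of 31291.5, 25065 and 23229, so total UMIs did not favour the members. Globins made up a median of 21.6%, 25.7% and 28.3% of the erythroid UMIs, however. The median number of genes was 3385.5, 2509 and 2475 in erythroid barcodes and 4061, 3293 and 3316 in members. Depth outside globins was not compared. With every barcode thinned to 2000 UMIs, Pax6 was found in 23.5%, 20.6% and 21.6% of members and in 0, 0.851% and 0.457% of erythroid barcodes, where 0 of 78 was the E8.5 count.

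The neural part of the name held for most members but not for all. Its hindbrain and spinal part comes from the Hox and Otx2 conditions of the rule, which the genes below do not check. UMIs of at least 2 of 6 neural genes outside the rule (Pax6, Hes5, Sox1, Sox3, Sox21, Rfx4) were found in 79.6%, 69.7% and 70.1% of members, and no UMI of any of the 6 in 11.6%, 16.7% and 16.49%. The Otx2 barcodes described above (Otx2 progenitors) passed this neural count in 81.6%, 75.7% and 74.8%. Members that passed it and neither of the mesoderm and neural crest counts below were 68.3%, 56.7% and 55.4%. At least 2 UMIs over 10 mesoderm genes such as Twist1, Tcf15 and Meox1 were found in 17.0%, 25.2% and 26.8%. At least 2 over 7 neural crest genes were found in 11.3%, 10.97% and 12.46%. No such shares are given for erythroid barcodes, and the part of RNA from other cells in these counts was not tested. A single Sox2 UMI was the count in 25.3%, 27.0% and 26.8% of members. Erythroid barcodes that were not members had a Sox2 UMI in 10.3%, 9.36% and 11.9%. The neural and mesoderm shares followed the Sox2 count. Among members with a single Sox2 UMI, 52.8%, 33.2% and 34.8% passed the neural count and 29.7%, 46.3% and 45.2% the mesoderm count. Among those with 2 or more Sox2 UMIs, 88.7%, 83.2% and 83.0% passed the neural count and 12.8%, 17.4% and 20.1% the mesoderm count. The members are called Hox progenitors here with that limit, and comparisons that turned on it are given with the neural genes required.

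**Figure D1:**
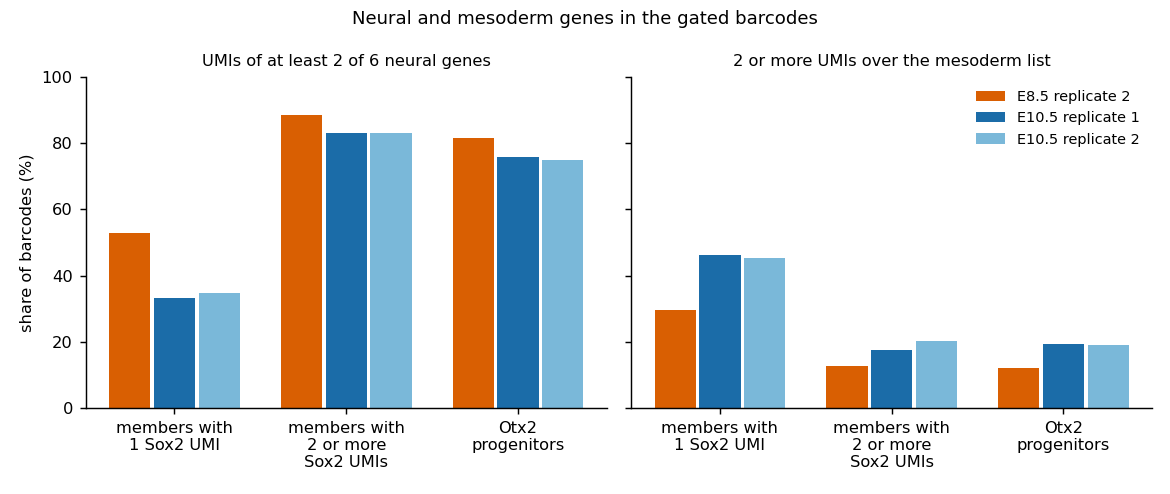
Share of barcodes (y axis, %) with UMIs of at least 2 of 6 neural genes (left) and with 2 or more UMIs over the mesoderm list (right), for members with 1 Sox2 UMI, members with 2 or more, and Otx2 progenitors, with 1 bar per library. Members with 1 Sox2 UMI reached 33.2% to 52.8% in the left panel, and those with 2 or more reached 83.0% to 88.7%.

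The Hox threshold cut through few barcodes. Just inside it, with exactly 3 Hox UMIs, lay 19, 167 and 118 members, and just outside, with 2, lay 34, 207 and 171 barcodes. Neural genes were found in 47.4%, 59.3% and 65.3% of the former and in 61.8%, 50.2% and 54.4% of the latter. The median member had 15, 15 and 16 Hox UMIs. Depth set how many barcodes passed: on barcodes thinned to 5000 UMIs the rule kept 250 of 5170 (4.84%), 1590 of 12601 (12.6%) and 1446 of 12346 (11.7%).

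The 39 coding Hox genes lie in Hoxa (chr6:52155590-52260880, 11 genes), Hoxb (chr11:96194316-96368256, 10 genes), Hoxc (chr15:102921103-103036852, 9 genes) and Hoxd (chr2:74668310-74765142, 9 genes), with coordinates from the GRCm38 annotation, the build named as mm10 in the labels. Hoxb gave the largest share of the members' Hox UMIs, at 46.3%, 45.9% and 45.1%, and 36.9%, 39.0% and 38.8% of those in all other barcodes. Hoxa gave 22.7%, 22.8% and 22.8%, Hoxc 16.8%, 20.2% and 21.1%, and Hoxd 14.2%, 11.1% and 11.01%.

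By the mean of the 3 libraries, Hoxb2, Hoxb9, Hoxd4, Hoxb8, Hoxa2, Hoxc9 and Hoxb4 had the highest levels, in that order, but the order differed between stages. At E8.5 Hoxd4 and Hoxa2 were above Hoxb9, and Hoxb1 was above Hoxb4, Hoxc9 and Hoxb8. At E10.5 Hoxc8 was above Hoxb4. Levels are UMIs of a gene for every 1000000 UMIs of the group (CPM), and since 3' tags were counted they depend little on transcript length. Hoxb2, which acts in hindbrain segments, was at 94.0, 119 and 118 CPM. Hoxd4, whose front border lies in the caudal hindbrain, was at 80.9, 83.2 and 85.7 CPM. Both were near the same level at the 2 stages, whereas Hoxb9, a gene of the thoracic trunk, was at 49.5 CPM in the E8.5 library and at 108 and 114 CPM at E10.5. Hoxc9 was at 36.3, 63.9 and 67.6 CPM, and Hoxb1, a gene of the fourth hindbrain segment and early caudal tissue, at 46.3, 40.2 and 40.4 CPM. Genes of groups 12 and 13 were nearly silent: Hoxb13 had 0.0403, 0.0593 and 0.0416 CPM, and Hoxc12 and Hoxc13 had no UMI at E8.5.

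**Figure D2:**
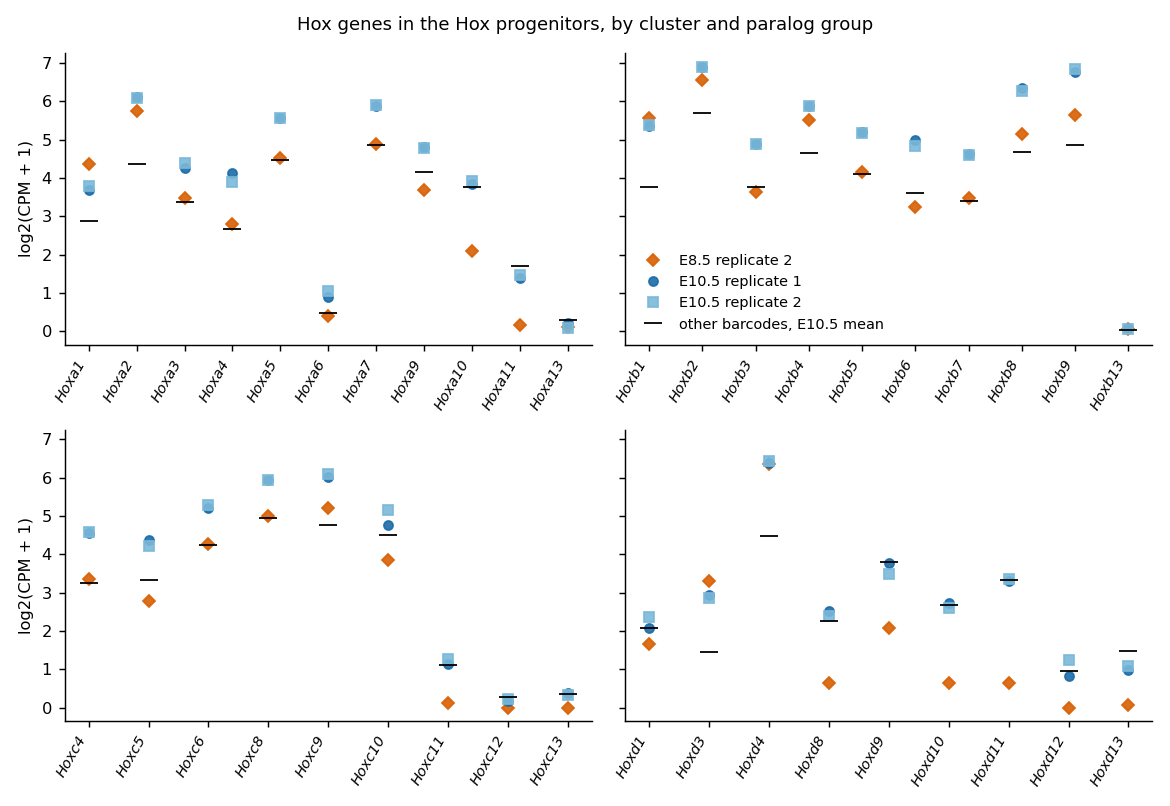
Level of each coding Hox gene in the members as log2(CPM + 1), by cluster (panels) and paralog group (x axis), with 1 point per library and a bar for the mean of the other barcodes of the E10.5 libraries. Group 13 is near 0 in Hoxb and low in the other clusters, and the E8.5 points lie below the E10.5 points for most genes from group 5 upwards.

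Paralog groups 2, 4 and 9 were the peaks of the Hox profile. Summed over clusters, group 2 reached 147, 187 and 185 CPM, group 4 reached 141, 181 and 181 CPM, and group 9 reached 101, 212 and 218 CPM. Group 10 was far lower at 17.3, 45.3 and 54.0 CPM, and group 13 at 0.161, 1.48 and 1.497 CPM.

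Each member with a Hox UMI left after thinning to 5000 UMIs was then placed by its highest-numbered group with a UMI. Thinning to 5000 UMIs was possible for 835, 2683 and 2503 members. Group 9 was the highest in 18.7%, 31.9% and 31.0% of them, group 4 in 21.2%, 12.8% and 13.8%, and group 2 in 21.2%, 12.7% and 11.9%. Members with any UMI of groups 6 to 13, called trunk members, were 33.2%, 57.0% and 57.2%. Members with no UMI of groups 5 to 13, called anterior members, were 60.7%, 34.5% and 34.2%. They include 88, 115 and 97 members with no Hox UMI left, which could not be placed. The 2 E10.5 libraries were alike and both differed from E8.5, where a single library allows no test. E8.5 members were deeper, so thinning removed a larger part of their UMIs, and its part in the stage difference was not tested. With 2 or more Sox2 UMIs required, trunk members were 31.9%, 55.7% and 57.9%. The absence of a group in a thinned barcode says only that it was not captured.

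**Figure D3:**
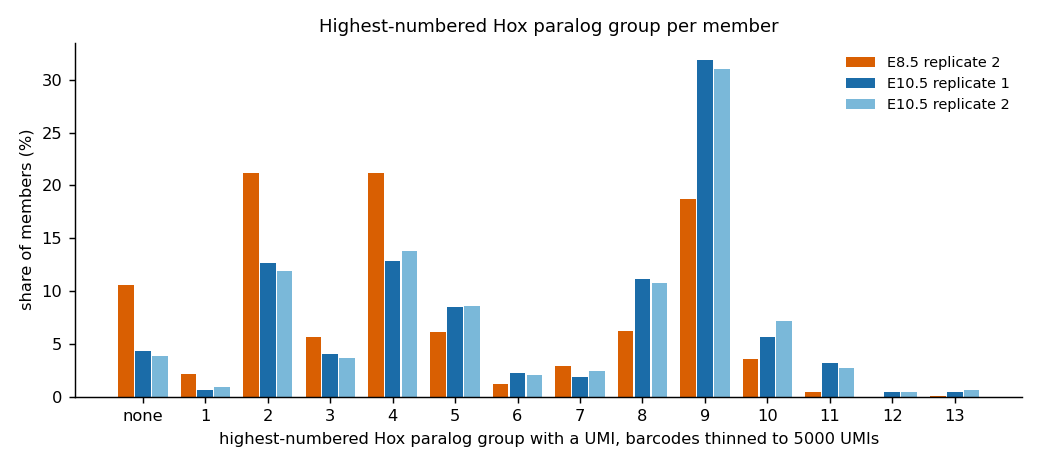
Share of members (y axis, %) by the highest-numbered Hox paralog group with a UMI (x axis) after thinning each barcode to 5000 UMIs, with 1 bar per library. Members with no Hox UMI left stand under none. The E8.5 bars peak at groups 2 and 4 (both 21.2%), and the E10.5 bars at group 9 (31.9% and 31.0%).

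Hoxc8 was found more often in members with Hoxb9, a gene of the neighbouring group, than in those without. Only this neighbouring pair was examined. Hoxc8 was detected in 38.5%, 40.3% and 43.5% of members with a Hoxb9 UMI and in 7.01%, 8.99% and 9.07% of those without, at 5000 UMIs each. The reverse held for Hoxa2, where Hoxc8 was detected in 5.73%, 10.0% and 11.9% of members with a Hoxa2 UMI and in 13.4%, 20.3% and 21.5% of those without. All of these are rule genes, so the shares are a description.

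Hox progenitors and Otx2 progenitors differed in the genes of axial position, retinoic acid handling and dorsoventral pattern. The comparison asks what else separates the members from Sox2 barcodes with Otx2, a gene of forebrain and midbrain. The latter were not required to lack Hox genes. Their median was 0 coding Hox UMIs in each library, but 11.2%, 15.0% and 13.8% of them had at least 3. It used UMI sums per library at E10.5 (2 sums against 2) in the quasi-likelihood test of edgeR, with p-values adjusted by the Benjamini-Hochberg method over every gene tested and called at an adjusted p under 0.05. Of 13951 genes tested, 1781 were higher (12.8%) and 1883 lower (13.5%) in Hox progenitors. DESeq2 called 844 and 969, and edgeR on barcodes thinned to 2000 UMIs called 384 and 384. The median log2 difference over all genes was 0.0044.

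Forebrain and midbrain genes were low in the Hox progenitors. Of 12 such genes tested 11 were lower and none was higher, with a median log2 difference of -3.70. Otx1, the partner of Otx2 in forebrain and midbrain, was at 0.691 and 0.831 CPM in Hox progenitors and at 32.6 and 31.9 CPM in Otx2 progenitors (log2 -5.36 ± 0.10 SE, adjusted p = 3.04e-13). Six3, a forebrain and eye field factor, was at 3.56 and 2.76 against 54.7 and 60.7 CPM. En1, a gene of the midbrain-hindbrain border, was at 4.19 and 3.33 against 35.5 and 32.4 CPM. The other genes with the largest falls from at least 20 CPM were Wnt8b, Lhx5, Nr2e1, 3110039M20Rik (ENSMUSG00000104861), Fezf2 and Tal2, with log2 differences from -5.10 to -4.38. Since the rule excluded Otx2, these genes sit close to it.

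Retinoic acid is made in the trunk mesoderm and sets Hox borders in hindbrain and spinal cord. Of 12 genes for its synthesis, binding, breakdown and receptors, 11 were higher in Hox progenitors and 1 was lower, with a median log2 difference of 1.34. Crabp1, a cytoplasmic retinoic acid binding protein, was at 1157 and 1144 CPM against 262 and 299 CPM (log2 2.07 ± 0.052 SE, adjusted p = 3.96e-12). The receptor genes Rara and Rarb had log2 differences of 1.46 and 2.14, and Rarb was at 14.3 and 15.3 against 2.86 and 3.97 CPM. Cyp26b1, an enzyme that breaks retinoic acid down, was at 12.1 and 12.3 against 1.41 and 2.20 CPM, and Aldh1a2, the main synthetic enzyme, at 12.9 and 14.6 against 2.90 and 3.22 CPM. The lower gene was Stra6, a retinol uptake receptor, at 3.71 and 4.05 against 5.85 and 5.86 CPM (log2 -0.56). Its call was lost in DESeq2 and on barcodes thinned to 2000 UMIs (log2 -0.56 and -0.33).

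Meis and Pbx proteins bind DNA together with Hox proteins, and 7 of their 9 genes tested were higher and 1 was lower. Meis1 was at 58.2 and 57.1 against 21.7 and 23.6 CPM (log2 1.38, adjusted p = 1.80e-10) and Meis2 at 196 and 188 against 108 and 113 CPM (log2 0.84). The lower gene was Pbx4, at 24.3 and 24.8 against 28.7 and 29.1 CPM (log2 -0.20, adjusted p = 0.0119). Its call was lost in DESeq2 and without Hox progenitor replicate 1 or Otx2 progenitor replicate 2 (log2 -0.20, -0.17 and -0.18), and its direction was not stable: the log2 difference was 0.01 with the neural genes required of both groups. It was 0.16 when barcodes with UMIs of other lineages, globins not counted, were dropped from both groups, and 0.41 for the 84 and 57 members with no such UMIs, globins counted, against all Otx2 progenitors.

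Dorsal factors divided. Of 12 dorsal genes tested 6 were higher and 4 lower. Msx3, a homeobox gene of the dorsal neural tube, had the largest rise among the called genes with at least 20 CPM in the higher group (the choice behind all largest rises and falls here), at 106 and 102 against 9.001 and 11.95 CPM (log2 3.35 ± 0.075 SE, adjusted p = 1.56e-12). Olig3, a bHLH factor of dorsal progenitors, was at 29.8 and 26.5 against 3.69 and 4.05 CPM (log2 2.89). Pax3 was at 63.9 and 64.2 against 32.9 and 31.3 CPM (log2 1.03), and Msx1 at 111 and 99.1 against 49.8 and 44.5 CPM (log2 1.19). Atoh1, the factor of the most dorsal hindbrain and cord neurons, was at 8.10 and 4.68 against 0.415 and 0.275 CPM. The dorsal genes that were lower included the roof plate genes Rspo1, at 14.3 and 13.1 against 49.1 and 48.8 CPM, and Lmx1a, at 1.17 and 1.41 against 3.32 and 2.99 CPM. Zic1, a zinc finger factor of dorsal neural tissue at all levels, was at 61.5 and 65.6 against 98.2 and 94.5 CPM.

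Intermediate and ventral factors also went both ways. Of 7 intermediate genes 5 were higher and 2 lower, and of 10 ventral genes 4 were higher and 3 lower. Dbx2, Gsx1 and Ptf1a were higher, with Gsx1 at 5.87 and 7.38 against 0.705 and 1.22 CPM, while Dbx1 was at 23.5 and 19.98 against 38.8 and 44.6 CPM (log2 -0.91). Nkx6-1, a ventral progenitor factor, was at 30.8 and 24.9 against 8.503 and 8.38 CPM (log2 1.76, adjusted p = 2.19e-08). Its paralog Nkx6-2 was lower at 25.3 and 20.1 against 48.7 and 34.2 CPM (log2 -0.83). Its log2 difference was -0.74 when barcodes of other lineages, globins not counted, were dropped from both groups, and 0.25, not called, for the 84 and 57 members left by the stricter filter against all Otx2 progenitors. Shh, the floor plate signal, was at 8.06 and 7.34 against 14.6 and 17.0 CPM. Olig2 did not pass the test, at 13.4 and 14.9 against 12.8 and 15.0 CPM.

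**Figure D4:**
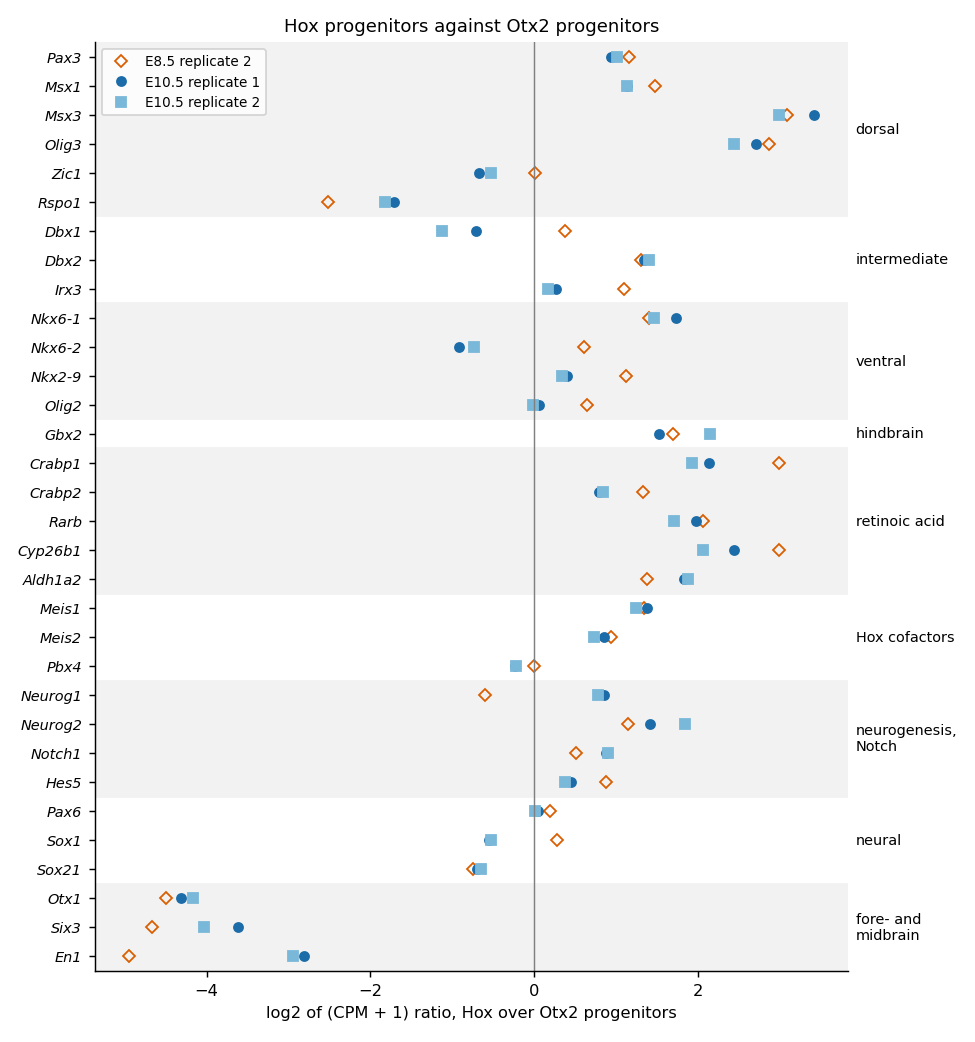
Log2 ratio of (CPM + 1) in Hox over Otx2 progenitors (x axis) for named genes (y axis, grouped by role), with 1 point per library and E8.5 as an open diamond. Crabp1, Msx3 and Olig3 lie right of 0 in all 3 libraries and Otx1, Six3 and En1 left of 0, whereas Nkx6-2 and Dbx1 lie on opposite sides at the 2 stages.

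Genes of hindbrain segments were mixed, with 5 of 9 higher and 3 lower. Gbx2, which marks the anterior hindbrain, was at 13.2 and 14.8 against 3.94 and 2.56 CPM. Egr2, a gene of alternate hindbrain segments, was at 0.375 and 0.582 against 0.124 and 0.0787 CPM, and its call was lost in DESeq2 and without Otx2 progenitor replicate 2 (log2 2.28 and 1.96).

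Neurogenic genes were higher more often than lower. Of 14 tested 8 were higher and 2 lower, and of 16 Notch pathway genes 7 were higher and 3 lower. Neurog2, a proneural bHLH factor, was at 38.9 and 41.3 against 13.9 and 10.7 CPM (log2 1.74, adjusted p = 2.48e-09), and Neurog1 at 21.4 and 23.3 against 11.3 and 13.1 CPM. The receptor gene Notch1 was at 38.8 and 39.2 against 20.7 and 20.5 CPM (log2 0.96) and its target Nrarp at 83.3 and 82.4 against 51.1 and 48.0 CPM. Hes5 was at 221 and 214 against 162 and 164 CPM, whereas Hes1 was lower (log2 -0.36), as was the ligand gene Jag1 (log2 -0.65). Jag1 was at -0.53 with both groups filtered and at 0.96 for those 84 and 57 members against all Otx2 progenitors. Of 12 neural progenitor genes 4 were higher and 3 lower, with a median log2 difference of 0.03. Pax6 was at 120 and 120 against 117 and 119 CPM and did not pass the test, while Sox1 (log2 -0.53) and Sox21 (log2 -0.66) were lower. Sox21 was at -0.46 with both groups filtered and at 0.26, not called, for the 84 and 57 members against all Otx2 progenitors. Of 15 cell cycle genes 3 were higher and 5 lower.

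Markers of several other cell types were higher in Hox progenitors too. All 7 neural crest genes and all 10 mesoderm genes tested were higher in the Hox progenitors, as were all 7 blood and endothelium genes and 4 of 7 cardiomyocyte genes. Of 7 endoderm genes 2 were higher and 3 lower, and of 6 surface ectoderm and placode genes 2 were higher and 1 lower. Sox10, a neural crest factor, was at 11.8 and 16.8 against 3.07 and 1.89 CPM, and its call was lost with the neural genes required (log2 1.05). Hbb-y, an embryonic globin, was at 799 and 1187 against 368 and 538 CPM at E10.5, and at 89.6 against 257 CPM, the opposite order, at E8.5. These levels are sums over barcodes. The median globin share per barcode was 0.0110%, 0.0521% and 0.0515% in Hox progenitors and 0.0111%, 0.0499% and 0.0492% in Otx2 progenitors. Which barcodes made the difference in the sums was not tested. Twist1, a mesenchyme factor, was at 54.3 and 46.1 against 27.1 and 25.9 CPM (log2 0.96). Summed over the list, mesoderm genes were at 59.3, 179 and 183 CPM in Hox progenitors and at 34.1, 93.5 and 85.1 CPM in Otx2 progenitors. Neural crest genes were at 40.6, 62.7 and 77.2 against 20.7, 22.0 and 18.8 CPM. Erythroid barcodes carried the mesoderm list at 10.47, 59.5 and 50.3 CPM and the neural crest list at 6.98, 11.4 and 5.37 CPM. No gene of either list was at 0 in Hox or Otx2 progenitors. The part of these cell types in the differences above was not tested. With the neural genes required of both groups, 1136 genes were higher and 1248 lower.

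Non-coding genes of the Hox clusters were higher without exception, 6 of 6 tested. Hoxb5os was at 168 and 181 against 16.7 and 18.8 CPM, Hotairm1 at 66.0 and 65.2 against 8.05 and 8.53 CPM, and Hoxb3os at 55.0 and 61.7 against 5.27 and 7.24 CPM. Hoxaas3, Haglr and Hoxd3os1 had log2 differences of 3.26, 2.91 and 2.62, and Gm15050, a non-coding gene across Hoxa3, 3.04. All of them overlap coding Hox genes on the other strand. Cell Ranger, run by the authors with default parameters, sets antisense reads apart from sense reads, but how fully this separated the overlapping genes was not tested, and nothing is drawn from them. Apela, which encodes a small secreted peptide, was among the 8 largest rises as well, at 24.6 and 21.5 against 3.94 and 4.56 CPM.

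Some pairs of dorsoventral factors rarely met in single barcodes, and for others a separation was less clear. At 5000 UMIs each, Nkx6-1 was found in 0 of 126, 9 of 619 and 10 of 602 members with a Pax3 UMI (0, 1.45% and 1.66%, upper exact 95% limits 2.89%, 2.74% and 3.03%). Among members without Pax3 the shares were 9.73%, 16.4% and 12.6%. Nkx2-2, a factor of the most ventral progenitors, was found in 0, 0.307% and 0.323% of members with Pax6 and in 2.46%, 4.57% and 3.94% of those without. Olig2, of the motor neuron domain, was found in 7.25%, 19.6% and 24.9% of members with Nkx6-1 and in 2.09%, 2.91% and 3.42% of those without. Pax3 with Nkx6-1 and Pax6 with Nkx2-2 thus rarely met in a barcode. The nested ventral pair met more often at E10.5, whereas at E8.5 it met in 5 of 69 members with Nkx6-1 and the exact 95% intervals overlapped (2.39% to 16.1% with Nkx6-1 and 1.20% to 3.37% without). Nkx2-2 was in 8.696%, 12.7% and 10.8% of members with Nkx6-1 and in 0.653%, 1.58% and 1.69% of those without. These intervals did not overlap in any library. Olig2 was rarer and Pax7 more frequent in members with Pax3 than in those without, and those intervals overlapped only at E8.5. For Pax6 with Olig2 and for Dbx1 with Pax3 the intervals overlapped in each library. Olig2 was in 1.80%, 4.91% and 4.31% of members with Pax6 and in 3.13%, 5.16% and 6.29% of those without. Pax3 was in 4.55%, 18.5% and 23.3% of members with Dbx1 and in 15.4%, 23.4% and 24.1% of those without. Overlap of intervals does not show that a pair is not separated. With 2 or more Sox2 UMIs, Olig2 was in 1.26%, 4.20% and 3.96% of members with Pax6 and in 3.24%, 6.07% and 7.73% of those without. The intervals then still overlapped at E8.5 and in E10.5 replicate 1, but not in E10.5 replicate 2 (2.72% to 5.54% and 6.19% to 9.50%). With 2 or more Sox2 UMIs required, Nkx6-1 was in 0, 1.36% and 1.25% of members with Pax3 and in 10.2%, 18.2% and 14.8% of those without. Twist1 was detected in 0.773%, 5.22% and 4.96% of members with Pax6 and in 4.25%, 15.6% and 15.4% of those without. With 2 or more Sox2 UMIs the shares were 0.943%, 5.02% and 4.94% with Pax6 and 1.62%, 7.83% and 8.20% without, and their intervals overlapped in each library.

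Against all other barcodes, the members carried neural progenitor and cell cycle genes at higher levels. Of 16104 genes tested at E10.5, 4150 were higher (25.8%) and 4501 lower (27.9%) in the same test, with 2988 lower in DESeq2. All 12 neural progenitor genes, all 7 intermediate genes and all 15 cell cycle genes were higher, with median log2 differences of 1.11, 2.41 and 0.37, while the median over all genes was -0.0155. The rule required Sox2 and capped Elavl3 and Stmn2, so these rises are not independent of it. Nor were they particular to the members. Neural progenitor genes summed to 1363 and 1314 CPM in members and 1318 and 1287 CPM in Otx2 progenitors. Cell cycle genes summed to 2628 and 2611 against 2647 and 2665 CPM. Hes5 was at 221 and 214 against 57.7 and 58.2 CPM, Pax6 at 120 and 120 against 35.9 and 37.8 CPM, and Ccnd2, a G1 cyclin, at 940 and 934 against 554 and 539 CPM. The largest rises were those of Olig3, Msx3, Fgfbp3, Ednrb, Foxb1, Hes5, Pou3f2 and Hoxb5os, with log2 differences from 2.89 down to 1.95. Ednrb, an endothelin receptor gene known from neural crest and radial glia, was at 29.9 and 28.7 against 6.95 and 5.96 CPM.

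Genes of other lineages were lower in that comparison. All 12 forebrain and midbrain genes, all 10 mesoderm and all 7 cardiomyocyte genes were lower. Pf4, a megakaryocyte gene, had the largest fall (log2 -4.06), followed by the peptide gene Sst (-3.82), Myl2 of cardiac muscle (-2.92) and D930028M14Rik (-2.86). Ina, Nefl and Nefm, which encode neuronal intermediate filaments, had log2 differences of -2.75, -2.66 and -2.46, and Onecut2 had -2.34. The rule capped the neuronal genes Elavl3 and Stmn2, so the neuronal genes here sit close to it. Of 14 neurogenic genes 6 were higher and 6 lower. Neural crest genes went against the other lineages, with 4 of 7 higher and 2 lower. Sox10 was at 11.8 and 16.8 against 5.56 and 6.10 CPM, but with the neural genes required of members its log2 difference was -0.78. Erbb3 turned likewise to -1.12, and Foxd3 to -0.46, which was not called.

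Trunk and anterior members, split by their Hox genes alone, differed in caudal and retinoic acid genes. The split compared 1529 with 926 members in E10.5 replicate 1 and 1432 with 856 in replicate 2. Of 13137 genes tested, 661 were higher in trunk members (5.03%) and 634 lower (4.83%). DESeq2 called 336 and 271. With the library as a block, since both groups come from the same libraries, 1044 were higher. Without trunk Hox replicate 1 or 2 the counts were 427 and 360 higher and 421 and 380 lower.

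Caudal genes were higher in trunk members, 5 of 8 tested and none lower. Cdx2, a caudal homeobox factor that acts upstream of trunk Hox genes, was at 5.13 and 4.26 against 0.483 and 0 CPM (log2 4.24, adjusted p = 7.83e-06), a call that DESeq2 did not make (log2 4.33). Cdx4 was at 2.95 and 2.56 against 0.121 and 0 CPM, and Nkx1-2, a gene of the neural plate next to the node, at 1.37 and 1.56 against 0.121 and 0.131 CPM. Fgf17 was at 5.73 and 4.85 against 2.90 and 1.90 CPM. Cdx1 passed (log2 1.02), but not in DESeq2 or without trunk Hox replicate 2 (log2 1.02 and 0.95). In the E8.5 library these genes stood further apart, with Cdx2 at 33.9 CPM in trunk and 0.394 CPM in anterior members and Cdx4 at 35.6 and 0.329 CPM.

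Retinoic acid genes went both ways, with 4 of 12 higher and 4 lower in trunk members. Crabp1 was at 585 and 614 CPM in trunk against 2193 and 2203 CPM in anterior members (log2 -1.83 ± 0.038 SE, adjusted p = 2.78e-14). Cyp26b1 was at 3.18 and 3.99 against 29.8 and 29.0 CPM (log2 -2.99). Aldh1a2 was at 17.8 and 19.2 against 5.31 and 7.87 CPM (log2 1.54), and Rarb at 16.7 and 17.3 against 8.998 and 10.4 CPM (log2 0.86). With 2 sums against 2, the lack of overlap in these 4 called genes adds nothing to the calls. Crabp1 kept the same order at E8.5, at 574 against 4112 CPM.

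Of 9 hindbrain segment genes tested, 3 were higher in anterior members and none in trunk members. Epha4, a guidance receptor gene of alternate hindbrain segments, was at 22.5 and 27.1 CPM in trunk and 44.4 and 43.1 CPM in anterior members. Nkx6-2 was at 9.05 and 9.77 against 55.7 and 41.3 CPM (log2 -2.33, adjusted p = 1.07e-09), while Olig2 went the other way, at 18.4 and 21.3 against 6.04 and 4.65 CPM (log2 1.93, adjusted p = 4.80e-08). Nkx6-1 did not pass the test. The intermediate genes Gsx1 and Ptf1a were lower in trunk members, at log2 -1.39 and -1.37, and so was Atoh1 (log2 -0.77), at an adjusted p of 0.0427, whose call was lost under 6 alternatives, among them the omission of anterior Hox replicate 1 (log2 -0.47) and of trunk Hox replicate 2 (log2 -0.39). The iroquois gene Irx2 was lower too (log2 -1.56).

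Progenitor genes were lower in trunk members, 9 of 12 tested and none higher. The neural gene count was passed by 67.0% of trunk and 77.1% of anterior members in replicate 1 and by 67.9% and 77.6% in replicate 2, and the part of this in the falls was not tested. Fabp7, a lipid binding protein of radial glia, was at 85.2 and 86.3 against 249 and 233 CPM (log2 -1.45), Nes at 58.3 and 54.9 against 88.4 and 81.0 CPM (log2 -0.54), and Hes5 at 200 and 192 against 262 and 253 CPM (log2 -0.35). Pax6 differed by log2 -0.22, a call that was lost without members that carried UMIs of other lineages, both with globins left out of those lineages (log2 -0.0045) and with globins counted, where 34 and 21 trunk and 21 and 12 anterior members were left (log2 0.13). Ccnd2 was higher in trunk members, at 1087 and 1101 against 709 and 659 CPM (log2 0.72), as were Sox9 (log2 0.47), Neurog2 (log2 0.84) and Neurod4 (log2 1.22). Wnt4 was higher (log2 1.41) and Sfrp1, a secreted Wnt inhibitor, lower (log2 -1.22).

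**Figure D5:**
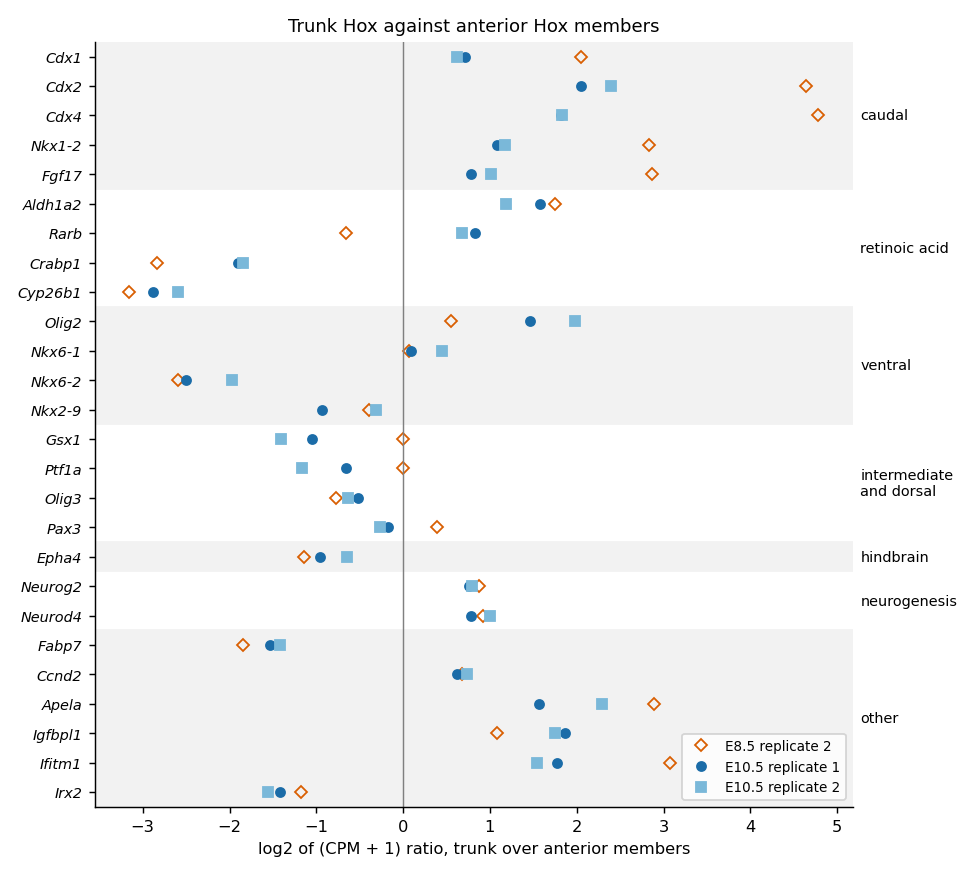
Log2 ratio of (CPM + 1) in trunk over anterior members (x axis) for named genes (y axis, grouped by role), with 1 point per library and E8.5 as an open diamond. Cdx2, Cdx4 and Aldh1a2 lie right of 0 and Crabp1, Cyp26b1, Nkx6-2 and Fabp7 left of 0 in all 3 libraries.

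Among the largest rises in trunk members were Apela (log2 2.02), Igfbpl1 (1.93), Ifitm1 (1.80), Grrp1 (2.00), Fndc5 (2.81) and 2610528A11Rik (3.64), beside the non-coding Hoxb5os (4.58) and Hoxaas3 (3.06). Hoxb3os, which overlaps Hoxb2 and Hoxb3, was lower (log2 -1.25). These non-coding genes overlap coding Hox genes on the other strand, and nothing is drawn from them. The largest falls were those of Cyp26b1, Nkx6-2 and Crabp1, given above, and globin genes came next. Hbb-y was at 560 and 624 CPM in trunk and 1346 and 2492 CPM in anterior members, and Hba-x, Hba-a1 and Hbb-bh1 had log2 differences of -1.69, -1.52 and -1.72. The difference in Hba-a1 was 0.01 once members with UMIs of other lineages outside globins were dropped, and -1.53, still called, with the neural genes required. Of 7 cardiomyocyte genes 5 were lower in trunk members. Of 10 mesoderm genes 3 were higher in trunk members and none lower, with a median log2 difference of 0.14, and Tcf15 was among the higher ones (log2 0.95). The mesoderm count was passed by 29.2% of trunk and 21.3% of anterior members in replicate 1 and by 30.4% and 23.0% in replicate 2, and trunk members were also deeper, with a median of 17549 and 18372.5 UMIs against 15718 and 15753. Sox10 was higher (log2 0.72), but not with the neural genes required, in DESeq2 or without trunk Hox replicate 2 (log2 0.92, 0.71 and 0.45). The part of these cells in the other differences was not tested.

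The E8.5 library was set beside the E10.5 libraries without a test. A gene counted as past the fold when E8.5 lay at least 2-fold outside both E10.5 libraries and the higher stage had at least 20 CPM, and 4449 genes could be measured. Of these 178 were higher at E10.5 (4.00%) and 20 higher at E8.5 (0.450%). Stage and library cannot be told apart in these counts.

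Of 9 neurogenic genes measured, 7 were past the fold towards E10.5. Neurog1 was at 2.62 CPM at E8.5 and at 21.4 and 23.3 CPM at E10.5. The cell cycle exit gene Cdkn1c was at 61.0, 190 and 194 CPM. Notch1 was at 14.4, 38.8 and 39.2 CPM and Nrarp at 16.8, 83.3 and 82.4 CPM, and the radial glia genes Fabp7 and Sox9 were at 40.6, 145 and 136 CPM and at 17.2, 52.8 and 55.5 CPM. None of the 15 cell cycle genes was past the fold. On the E8.5 side were Lin28a, an RNA-binding protein of early embryonic cells, at 87.8, 29.2 and 28.7 CPM, Hes3, a Hes gene of the early neural plate, at 40.6, 15.2 and 14.4 CPM, and Crabp1, at 2783, 1157 and 1144 CPM. The share of trunk members also differed between the stages, and within trunk members Crabp1 was at 574, 585 and 614 CPM and within anterior members at 4112, 2193 and 2203 CPM. The other leading genes there were 1700011H14Rik, Ifitm1, Car4, Nr6a1, Tagln2, Pcbd1 and the non-coding Hoxaas3, which overlaps coding Hox genes. Globins and Mt2 led the E10.5 side, Hba-a2 at 14.4, 175 and 256 CPM, and Twist1 was at 6.85, 54.3 and 46.1 CPM. The part of RNA from other cells in the stage differences was not tested. With the neural genes required the counts were 167 and 17.

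Among the genes listed and named here, the differences called at E10.5 mostly had the same direction at E8.5. Of 120 called genes of the lists and names used here with at least 5 CPM at E8.5, 102 had the same sign there in Hox against Otx2 progenitors and 18 the opposite sign. For trunk against anterior members the counts were 77 of 82 and 5. The same rule chose the groups at both stages and some listed genes sit close to it. The counts are thus a description and do not stand for all called genes.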

How the data were processed

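Single-cell suspensions of embryos and hearts were run on the 10x 3' platform, and per the labels the authors aligned reads to mm10 with Cell Ranger 2.1.1 and used Seurat 3.1.1. The deposited values were UMI counts per gene and barcode with no normalization, and 9 of 10 matrices listed all barcodes. The labels name trypsin and the v2 chemistry, whereas the study's methods give other reagents for both. Cell Ranger was run with default parameters per the study's methods, and its use of strand was not checked here. The 3 embryo libraries held 151735273, 259041468 and 254118869 UMIs.

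The members, gene lists and tests were chosen with earlier results of these data known. Barcodes were filtered as in the report, no doublet caller was run and no mitochondrial filter was applied. UMIs were summed per library and group, and edgeR 4.0.16 (R 4.3.3; TMM scaling, filterByExpr, quasi-likelihood test, Benjamini-Hochberg adjustment) was run on the 2 E10.5 libraries with DESeq2 1.42.0 as an alternative. CPM are raw counts for every 1000000 UMIs of a sum, and log2 differences come from edgeR. Since the labels do not say that the libraries came from separate embryos, p-values measure only the spread between these libraries. Groups of a comparison share their libraries, and their sums deviated together (r = 0.41, 0.51 and 0.24 across 4357, 4345 and 4335 genes for the Otx2, other-barcode and trunk comparisons, genes not being independent replicates). On simulated counts, 84 of 98, 85 of 96 and 89 of 97 genes changed 2-fold up or down were recovered in the same order. Genes simulated with a smaller change are not in these counts. Unlike the data, the simulated sums of a library did not deviate together, and recovery of the named genes was not tested. Exact intervals (Clopper-Pearson, 95%) and limits cover counting error only.

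Genes named were those of 23 fixed lists (224 of 226 listed genes found), the coding Hox genes, and the 8 largest called folds in each direction with at least 20 CPM in the higher group; some genes of the lists are counted but not reported here by name. Alternatives were other size factors, no filter on low counts, the library as a block, each sum left out, a 5% mitochondrial ceiling, other thresholds, thinning, and barcodes without UMIs of other lineages. Chosen after seeing the data were the requirement of neural genes, the version of the lineage filter without globins, and at least 2 Sox2 UMIs.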

Additional observations from a re-analysis of the deposited data

Results flagged for a closer look

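Of the 18 called genes counted above with the opposite sign at E8.5 in Hox against Otx2 progenitors, 4 passed a flag. The flag required at least 20 CPM in the higher group at both stages and a minimum size of the log2 ratio in each library. In these 4 the order in the E8.5 library was the opposite of that in both E10.5 libraries. The difference between stages was not tested, since E8.5 had 1 library. Nkx6-2, the ventral homeobox gene, had a log2 ratio of 0.61 at E8.5 and was lower in Hox progenitors at E10.5. The embryonic globin genes Hbb-bh1, Hbb-y and Hba-x had log2 ratios of -1.30, -1.51 and -1.46 at E8.5 and were higher in Hox progenitors at E10.5. These globin values are ratios of sums, and the median globin share per barcode was near equal in both groups in each library.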

How the results depend on the processing

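For 128 gene results (a named gene in a comparison), 1717 values were recomputed over 22 settings, of which 1655 kept direction and call, 51 kept direction and lost the call, and 11 reversed. Genes of the lists that define a barcode filter were left out under that filter. The replicate block (the library as a term) changed no named gene's call and moved the count of genes higher in trunk members from 661 to 1044.

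Counts of genes higher and lower against Otx2 progenitors were 844 and 969 in DESeq2, 319 and 279 for members without other-lineage UMIs against all Otx2 progenitors (84 and 57 members left at E10.5, since nearly every barcode holds globin UMIs), 1121 and 1197 when both groups were filtered with globins ignored, 1136 and 1248 with neural genes required, 384 and 384 after thinning to 2000 UMIs, and 1039 and 1016 over 3 libraries with the replicate block. Against other barcodes DESeq2 gave 2988 lower, and the lineage filter 512 and 811. Trunk counts were 336 and 271 in DESeq2, 5 and 3 under the lineage filter, 407 lower with globins ignored, and 360 to 728 higher and 380 to 683 lower when a sum was left out. Apart from the built-in loss of barcodes and UMIs under filters and thinning, the cause was not tested.

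Members by library were 787, 2490 and 2349 at 5 Hox UMIs, 2997 and 2755 (E10.5) at 2, 250, 1590 and 1446 on thinned barcodes, 668, 1945 and 1812 with neural genes required, 627, 2037 and 1892 at 2 Sox2 UMIs, and 2683 (E10.5 replicate 1) at higher floors.

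Reversed log2 values against Otx2 progenitors under the lineage filter were Jag1 0.96, Nkx6-2 0.25, Pbx4 0.41 and Sox21 0.26. Pbx4 was 0.16 with globins ignored and 0.0099 with neural genes required. Against other barcodes with neural genes required, Foxd3 was -0.46 (not called), Erbb3 -1.12 and Sox10 -0.78. Between trunk and anterior members Pax6 was 0.13 under the lineage filter and Hba-a1 0.0054 with globins ignored.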
